A study of Homo sapiens with 9 samples.

Results

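The epidermal growth factor (EGF) receptor system was followed through 9 genes in 9 RNA-seq libraries: the receptors EGFR, ERBB2 and ERBB3, the ligands TGFA, EREG, AREG, HBEGF and BTC, and the feedback inhibitor ERRFI1. They were taken by symbol, and all 9 were found among the 58174 genes of the deposited table. The libraries came from cells labelled HepG2, a human liver cancer line. There were 3 libraries each of cells overexpressing NFE2L1, of cells overexpressing NFE2L1DC and of control cells with the genotype label WT, which the protocol names pLVX, the name of a lentiviral vector. NFE2L1 belongs to the cap'n'collar basic leucine zipper factors, and the protocol writes NFE2L1DC with a Greek delta in place of the D. The labels do not state what the delta removes, which promoter drives the transgenes or whether each line was a clone or a pool. All groups were grown in high-glucose DMEM with serum.

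The EGF receptor and its relatives are tyrosine kinases at the cell surface that pair up when a ligand binds. Ligands are made as membrane-anchored precursors and released by metalloproteases, and the receptors signal through the RAS-ERK and PI3K-AKT cascades. ERK then raises feedback genes, among them ERRFI1, whose protein binds the EGFR kinase and blocks it. In liver this system is known for its part in growth and regeneration of hepatocytes.

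The label of the line was checked against 9 hepatocyte markers, and none of them reached 1 TPM in any library. ALB, APOB, SERPINA1, TTR and FGB were listed at 0 in all 9 libraries, and the 9 markers summed to between 0.0452 and 0.319 TPM. The libraries labelled HepG2 thus held almost none of the transcripts that define hepatocytes, and they are called by their group labels from here on. Among markers of other cell types, the keratin gene KRT7 was at 886, 946 and 958 TPM in NFE2L1 libraries, 804, 762 and 882 TPM in NFE2L1DC libraries and 586, 535 and 488 TPM in control libraries. The other 3 of the 4 bile duct markers listed with it, KRT19, SOX9 and EPCAM, stayed under 1 TPM. Of 4 blood cell markers, 3 were listed at 0 throughout, and the sum, all of it CD68, was 33.8 to 41.6 TPM with NFE2L1, 24.5 to 26.4 TPM with NFE2L1DC and 22.1 to 23 TPM in control. The 4 fibroblast markers summed to 20 to 28.4 TPM with NFE2L1, 24.2 to 27.7 TPM with NFE2L1DC and 26.6 to 33.5 TPM in control, and 3 endothelial markers to under 1 TPM. The part of these differences in the results that follow was not tested. NFE2L1 itself was at 207, 181 and 354 TPM in NFE2L1 libraries, at 445, 427 and 472 TPM in NFE2L1DC libraries and at 104, 81.7 and 64 TPM in control libraries, so every overexpressing library lay above every control library. The control libraries did not lie together. On the first principal component (41.9% of the variance) control replicates 1 and 2 were both at 43.8, while control replicate 3, at -5, lay among the overexpressing libraries (-23 to 1.2). On the second (13.4%) control replicate 3 stood apart at -37.9, against -3.6 to 10.9 for the other 8 libraries. Values in TPM, a transcript abundance scaled for length and to a common total per library, carry no read depth, so no counting interval can be given.

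The upstream sequences of the genes that the results turn on are shown first. TGFA is the ligand gene that was called higher in both overexpressing lines, while EPGN and NRG1 also lay above control in every library of both lines without a call in NFE2L1DC. EPGN, EREG and AREG, which encode the ligands epigen, epiregulin and amphiregulin, lie in this order on the plus strand of chromosome 4, and they differed in how they moved. EPGN is not among the 9 genes and comes from a list of the remaining receptor and ligand genes of the family. Each run gives the 250 bases before a RefSeq transcript start (GRCh38.p14), read 5′ to 3′ on the gene's strand, and TGFA has 2 listed starts. Capitals mark matches to any of 4 motifs searched on both strands: the AP-1 site TGANTCA, the cyclic AMP response element TGACGTCA, the antioxidant response element core TGACNNNGC and the ETS core CCGGAA.
TGFA, outer start, chr2:70553827-70554076, minus strand: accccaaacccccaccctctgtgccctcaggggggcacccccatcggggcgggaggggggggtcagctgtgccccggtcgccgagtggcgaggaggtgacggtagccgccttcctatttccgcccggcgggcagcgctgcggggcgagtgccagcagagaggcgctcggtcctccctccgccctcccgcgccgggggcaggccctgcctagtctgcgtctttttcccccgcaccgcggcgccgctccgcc
TGFA, inner start, chr2:70553447-70553696, minus strand: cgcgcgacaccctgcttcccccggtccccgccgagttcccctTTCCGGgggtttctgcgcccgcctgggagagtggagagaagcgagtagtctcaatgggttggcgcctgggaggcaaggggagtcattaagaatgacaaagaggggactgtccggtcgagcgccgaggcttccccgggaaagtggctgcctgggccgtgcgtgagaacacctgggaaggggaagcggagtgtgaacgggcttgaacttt
EPGN, chr4:74308220-74308469, plus strand: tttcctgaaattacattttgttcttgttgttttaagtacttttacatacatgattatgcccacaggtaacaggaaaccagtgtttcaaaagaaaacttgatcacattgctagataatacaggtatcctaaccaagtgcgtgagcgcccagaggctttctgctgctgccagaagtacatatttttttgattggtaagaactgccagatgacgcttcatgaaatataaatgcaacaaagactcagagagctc
EREG, chr4:74364895-74365144, plus strand: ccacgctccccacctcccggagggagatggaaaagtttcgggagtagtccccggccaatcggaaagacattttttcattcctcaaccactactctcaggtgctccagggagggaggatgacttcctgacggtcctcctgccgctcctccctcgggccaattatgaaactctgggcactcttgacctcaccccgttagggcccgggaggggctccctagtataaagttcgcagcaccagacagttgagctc
AREG, chr4:74444886-74445135, plus strand: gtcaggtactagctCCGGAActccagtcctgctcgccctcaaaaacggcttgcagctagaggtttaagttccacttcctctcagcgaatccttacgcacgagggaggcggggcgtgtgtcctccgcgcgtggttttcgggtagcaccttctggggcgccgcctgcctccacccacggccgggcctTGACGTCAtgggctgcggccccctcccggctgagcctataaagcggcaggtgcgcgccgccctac

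AREG held 1 cyclic AMP response element, at -65 to -58 from the start, and 1 ETS core, and the inner TGFA window held 1 ETS core on the opposite strand. The outer TGFA window and those of EPGN and EREG held none of the 4 motifs, and no matches overlapped. Among 35116 windows of this length in the same table, 6.57% held the AP-1 site, 1.65% the cyclic AMP response element, 10.9% the antioxidant response element core and 14.5% the ETS core. These matches describe letters only. Of the 9 genes, 8 had at least 1 window in the table, and the exception was ERBB3.

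TGFA encodes transforming growth factor alpha, a ligand of EGFR (GRCh38 chromosome 2, 70447280 to 70554193, minus strand). It was at 3.48, 2.68 and 2.55 TPM in NFE2L1 libraries, at 1.8, 1.98 and 1.87 TPM in NFE2L1DC libraries and at 0.329, 0.679 and 0.52 TPM in control libraries. The 3 groups did not overlap, with NFE2L1 highest and control lowest, a pattern found in 2.31% of the 14118 genes tested. Its mean was 2.9 ± 0.499 TPM with NFE2L1, 1.88 ± 0.0941 TPM with NFE2L1DC and 0.51 ± 0.175 TPM in control (SD, n = 3 each), a ratio of means of 5.7 and of 3.7 over control. On a log2(TPM + 1) scale, where changes of genes near 1 TPM come out too small, TGFA rose by 1.37 with NFE2L1 (SE 0.16, limma adjusted p = 0.000973). With NFE2L1DC it rose by 0.94 (SE 0.16, limma adjusted p = 0.0166). TGFA reached 1 TPM only in the 6 overexpressing libraries, so it passed the filter only through the groups where it was high. The rise with NFE2L1 kept its call in all 16 other fits that tested the gene, while that with NFE2L1DC kept it in 11 of 16. The NFE2L1DC call was lost without NFE2L1DC replicate 1 (limma adjusted p = 0.0615), without NFE2L1DC replicate 3 (0.0741) and without control replicate 1 (0.0592). It was also lost with only the groups compared in the fit, at a limma adjusted p of 0.0702. In bulk RNA, more cells with a transcript and more transcript per cell cannot be told apart. The intronic RNA TGFA-IT1 that overlaps the gene was listed at 0 throughout.

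EREG (chromosome 4, 74365143 to 74388751, plus strand) encodes epiregulin, a ligand of EGFR and ERBB4. It was at 1.31, 1.43 and 1.82 TPM in NFE2L1 libraries, at 0.824, 0.756 and 0.721 TPM in NFE2L1DC libraries and at 0.513, 0.241 and 0.848 TPM in control libraries. Every NFE2L1 library lay above all other libraries, while NFE2L1DC and control overlapped. EREG rose by 0.73 on the log2 scale with NFE2L1 (SE 0.18, limma adjusted p = 0.0329), with means of 1.52 ± 0.266 TPM in NFE2L1 libraries and 0.534 ± 0.304 TPM in control libraries (SD, n = 3 each). It passed the filter of 1 TPM in 3 libraries only through the NFE2L1 group, so it could be tested only because it was high there. Its call held in 6 of the 13 other fits that tested it, with limma adjusted p between 0.00563 and 0.116. It was lost, among others, without control replicate 1 (0.0913), control replicate 2 (0.116) or NFE2L1DC replicate 3 (0.0527), and once GC content and length were corrected for, where the change was 0.49 (limma adjusted p = 0.0535). With NFE2L1DC the difference from control was 0.22 (95% interval -0.17 to 0.62, limma adjusted p = 0.481).

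The gene next to EREG gave the largest difference among the ligand genes tested. EPGN (chromosome 4, 74308473 to 74315307, plus strand), whose product epigen binds EGFR, was at 9.02, 12.7 and 17.8 TPM in NFE2L1 libraries, at 2.26, 1.41 and 2.05 TPM in NFE2L1DC libraries and at 1.32, 1.15 and 0.94 TPM in control libraries. NFE2L1 libraries lay far above the rest, and NFE2L1DC libraries lay just above control. EPGN rose by 2.69 with NFE2L1 against control (SE 0.23, limma adjusted p = 0.0002) and by 2.25 against NFE2L1DC (SE 0.23, limma adjusted p = 0.00226). Both calls held in all 17 other fits. With NFE2L1DC the difference from control was 0.43 (95% interval -0.09 to 0.96, limma adjusted p = 0.307). No annotated gene overlapped EPGN, EREG, AREG or BTC.

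AREG and BTC are the other ligand genes of this stretch of chromosome 4, and neither reached 1 TPM in 3 libraries, so they were not tested with the rest. AREG (74445134 to 74455009) was at 0.616, 0.658 and 1.11 TPM in NFE2L1 libraries, at 0.303, 0.504 and 0.966 TPM in NFE2L1DC libraries and at 0.616, 0.496 and 0.836 TPM in control libraries. All 3 groups overlapped. Without the filter the difference of NFE2L1 from control was 0.12 (95% interval -0.3 to 0.53, limma adjusted p = 0.783). BTC, which encodes betacellulin, a ligand of EGFR and ERBB4 (74744759 to 74794686, minus strand), was at 0.229, 0.107 and 0.224 TPM in NFE2L1 libraries, at 0, 0.0379 and 0.0639 TPM in NFE2L1DC libraries and at 0, 0 and 0.0598 TPM in control libraries. Each NFE2L1 library lay above all others, at levels far under 1 TPM. The difference from control was 0.22 without the filter (SE 0.05, limma adjusted p = 0.0602), in a fit that called 3.18% of 29759 genes. The same fit called neither AREG nor BTC with NFE2L1DC against control or between the lines, where it called 1.22% and 0.306% of genes.

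HBEGF encodes heparin-binding EGF-like growth factor, a ligand of EGFR and ERBB4 (chromosome 5, 140332843 to 140346631, minus strand). It was at 2.72, 2.08 and 2.52 TPM in NFE2L1 libraries, at 2.1, 2.41 and 1.77 TPM in NFE2L1DC libraries and at 1.65, 1.99 and 2.23 TPM in control libraries, and the groups overlapped. The difference from control was 0.22 with NFE2L1 (95% interval -0.13 to 0.57, limma adjusted p = 0.362) and 0.07 with NFE2L1DC (-0.29 to 0.42, limma adjusted p = 0.822).

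**Figure D1:**
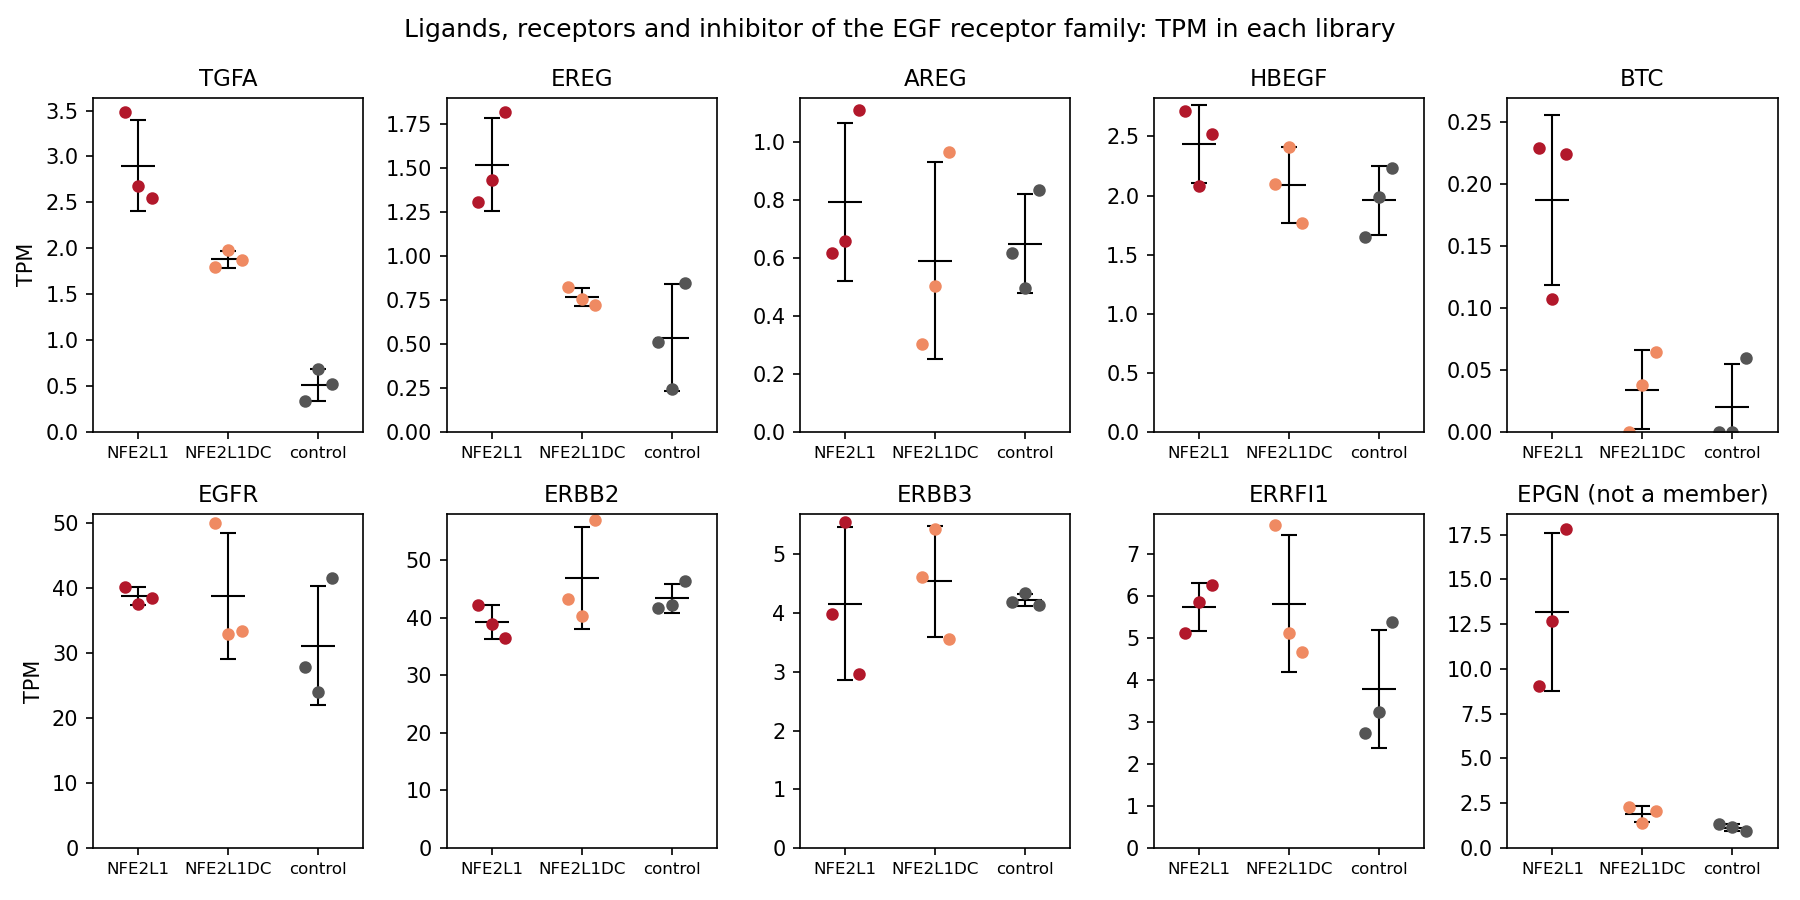
TPM (vertical axes, from 0, each panel on its own scale) of the 9 genes and of EPGN in each library, by group. Points are libraries, and black bars give the mean and SD of 3 libraries. TGFA and EPGN separate the 3 groups, EREG and BTC set the NFE2L1 libraries above all others, and the receptors overlap between NFE2L1 and control.

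The ligand genes added together show how the make-up of the ligand transcripts differed. TGFA, EREG, AREG, HBEGF and BTC summed to 8.35, 6.96 and 8.22 TPM in NFE2L1 libraries, to 5.03, 5.69 and 5.39 TPM in NFE2L1DC libraries and to 3.11, 3.41 and 4.49 TPM in control libraries. The sum did not overlap between groups. HBEGF made up 31% ± 1.4 of it with NFE2L1, 39% ± 5.29 with NFE2L1DC and 53.7% ± 4.49 in control (SD, n = 3 each). TGFA made up 37.1% ± 5.41, 35.1% ± 0.624 and 14% ± 5.11 in the same order of groups. With EPGN counted as well, the sums reached 17.4 to 26 TPM with NFE2L1, 7.1 to 7.43 TPM with NFE2L1DC and 4.43 to 5.43 TPM in control. EPGN was then 61.6% ± 8.64 of the ligand transcripts with NFE2L1, 26.1% ± 5.73 with NFE2L1DC and 24.1% ± 6.37 in control (SD, n = 3 each). These sums hold genes described above as higher and are not tested.

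**Figure D2:**
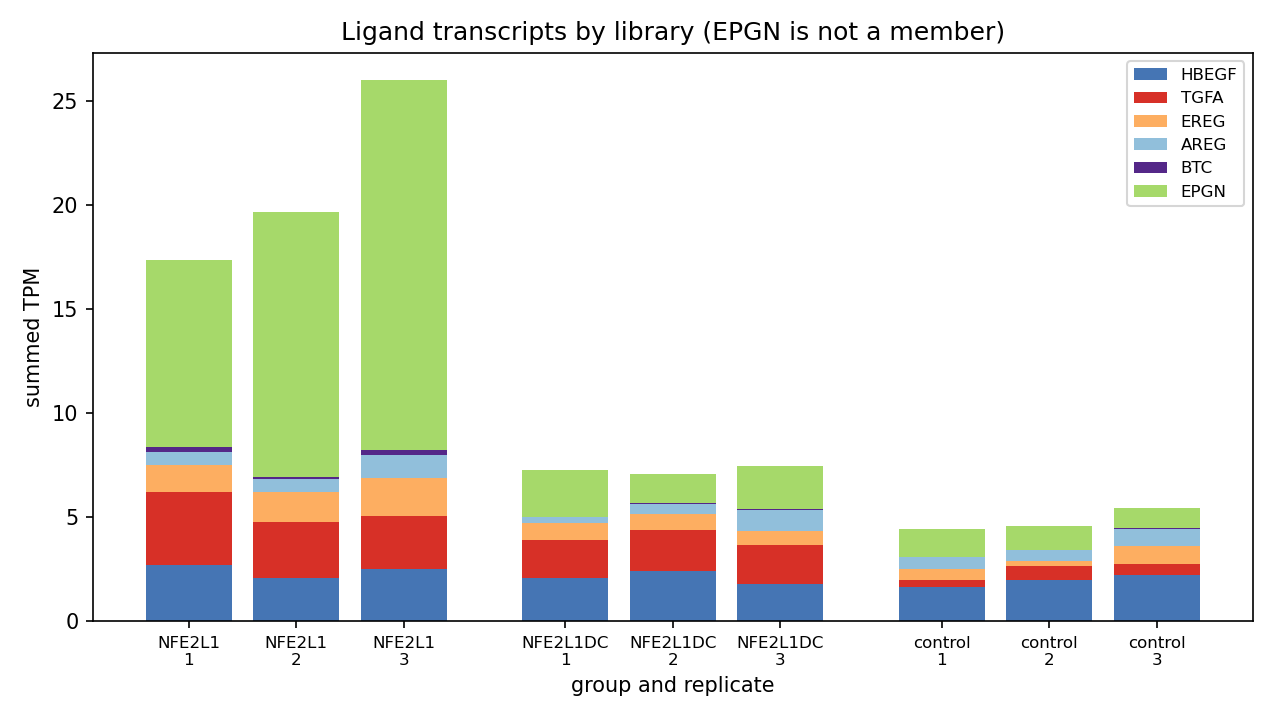
Summed TPM (vertical axis) of 6 ligand genes in each of the 9 libraries (horizontal axis, group and replicate), stacked by gene. EPGN makes up 51.9% to 68.4% of the bar in the 3 NFE2L1 libraries and 17.3% to 29.9% in the 3 control libraries.

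By TPM, which is per length, EGFR and ERBB2 stood above every ligand gene of the family in each group. In NFE2L1 libraries ERBB3, at a mean of 4.16 TPM, stood below EPGN at 13.2 TPM. There the ERBB3 range took in the ligand gene NRG4, at a mean of 4.55 TPM, and overlapped that of TGFA. None of the 3 receptors was called in any of the 3 comparisons. Over all genes 10.4% were called with NFE2L1 against control, 3.61% with NFE2L1DC against control and 0.793% between the lines. With shares this low, none of 3 says little about the receptors. EGFR (chromosome 7, 55019021 to 55211628, plus strand) was at 40.1, 37.5 and 38.4 TPM in NFE2L1 libraries, at 49.9, 32.9 and 33.3 TPM in NFE2L1DC libraries and at 27.8, 23.9 and 41.5 TPM in control libraries. Control replicate 3 lay above all NFE2L1 libraries, and control replicates 1 and 2 lay under every other library. The difference from control was 0.34 with NFE2L1 (95% interval -0.13 to 0.82, limma adjusted p = 0.292) and 0.32 with NFE2L1DC (-0.15 to 0.79, limma adjusted p = 0.399). Without control replicate 3 it was 0.57 with NFE2L1 (limma adjusted p = 0.0353) and 0.54 with NFE2L1DC (limma adjusted p = 0.0541). That fit called 36.3% of all genes with NFE2L1, 24.7% with NFE2L1DC and 1.06% between the lines.

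ERBB2, the partner receptor that has no known soluble ligand of its own (chromosome 17, 39687914 to 39730426, plus strand), was at 42.3, 39 and 36.5 TPM in NFE2L1 libraries, at 43.3, 40.3 and 57 TPM in NFE2L1DC libraries and at 41.8, 42.2 and 46.4 TPM in control libraries. Its difference from control was -0.14 with NFE2L1 (95% interval -0.44 to 0.15, limma adjusted p = 0.473) and 0.09 with NFE2L1DC (-0.2 to 0.39, limma adjusted p = 0.691). MIEN1, at 32.7 to 44.2 TPM, and PGAP3 overlap ERBB2 on the opposite strand, and the labels do not state whether the counting used strand. ERBB3, a neuregulin receptor with a weak kinase (chromosome 12, 56076799 to 56103505, plus strand), was at 3.98, 5.55 and 2.96 TPM in NFE2L1 libraries, at 4.62, 5.43 and 3.56 TPM in NFE2L1DC libraries and at 4.19, 4.34 and 4.13 TPM in control libraries. Control libraries lay within the range of both other groups. The ERBB3 difference was -0.05 with NFE2L1 (95% interval -0.51 to 0.42, limma adjusted p = 0.894) and 0.07 with NFE2L1DC (-0.39 to 0.53, limma adjusted p = 0.854). ERBB4, the fourth receptor, was at 0.0743 TPM or less in every library.

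ERRFI1, the inhibitor (chromosome 1, 8004404 to 8026308, minus strand), was at 5.12, 5.85 and 6.25 TPM in NFE2L1 libraries, at 7.67, 5.11 and 4.65 TPM in NFE2L1DC libraries and at 2.73, 3.24 and 5.37 TPM in control libraries. As for EGFR, control replicates 1 and 2 were the lowest of all libraries and control replicate 3 lay among the overexpressing ones. NFE2L1DC replicate 1 was the highest library for both genes. The ERRFI1 difference from control was 0.53 with NFE2L1 (SE 0.23, limma adjusted p = 0.162) and 0.52 with NFE2L1DC (SE 0.23, limma adjusted p = 0.233). Without control replicate 3 it was 0.76 (limma adjusted p = 0.0182) and 0.75 (limma adjusted p = 0.0267).

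In the order of their levels, ERBB2 and EGFR led in each group, and their ranges overlapped in NFE2L1 and in NFE2L1DC libraries but not in control. ERRFI1 and ERBB3 came next and overlapped each other in every group. Below them TGFA, at 2.9 TPM, stood above HBEGF with NFE2L1, and at 1.88 TPM stood below it with NFE2L1DC, with overlapping ranges in both. In control TGFA, at 0.51 TPM, stood below HBEGF, AREG and EREG, and its range overlapped those of AREG and EREG. BTC was the lowest in each group. The mean of EGFR exceeded that of 74.7% of the genes tested with NFE2L1, 75.4% with NFE2L1DC and 73% in control. For TGFA the shares were 22.1%, 15.5% and 0.673%.

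Of the 7 genes tested, 2 rose with NFE2L1 against control (TGFA and EREG) and none fell, beside 7.83% of all genes called higher and 2.57% called lower (10.4% either way). At an unadjusted p under 0.05 there were 3 of the 7, ERRFI1 being the other, beside 30.4% of all genes. For 2 of the 7 every NFE2L1 library lay above every control library, beside 22.6% of all genes, and for none did every one lie below, beside 9.53%. That share is near the background. With NFE2L1DC against control 1 rose (TGFA) and none fell, beside 2.06% of all genes called higher and 1.54% called lower (3.61% either way). At an unadjusted p under 0.05 there was also 1, beside 21.7% of all genes. Without overlap 1 was higher, beside 13.7%, and none lower, beside 8.98%. The median log2 fold change of the 7 was 0.34 with NFE2L1 and 0.22 with NFE2L1DC, beside 0.17 and 0.12 over all genes. Both comparisons use the same control libraries. TGFA and EREG passed the filter only through groups where they were high, and AREG and BTC did not pass, so the counts are no test of the 9 genes. Without the filter 1 of the 9, TGFA, was called in each comparison with control. The shares of all genes called in that fit were 3.18% with NFE2L1 and 1.22% with NFE2L1DC.

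Between NFE2L1 and NFE2L1DC none of the 7 was called by limma in either direction, beside 0.715% of all genes called higher and 0.0779% called lower (0.793% either way). At an unadjusted p under 0.05 there were 2 of the 7, beside 8.19% of all genes. These were TGFA, at 0.43 (95% interval 0.08 to 0.78, limma adjusted p = 0.494), and EREG, at 0.51 (0.11 to 0.9, limma adjusted p = 0.447). In both, every NFE2L1 library lay above every NFE2L1DC library, as in 12.4% of all genes, and for none of the 7 did every one lie below, as in 5.55%.

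**Figure D3:**
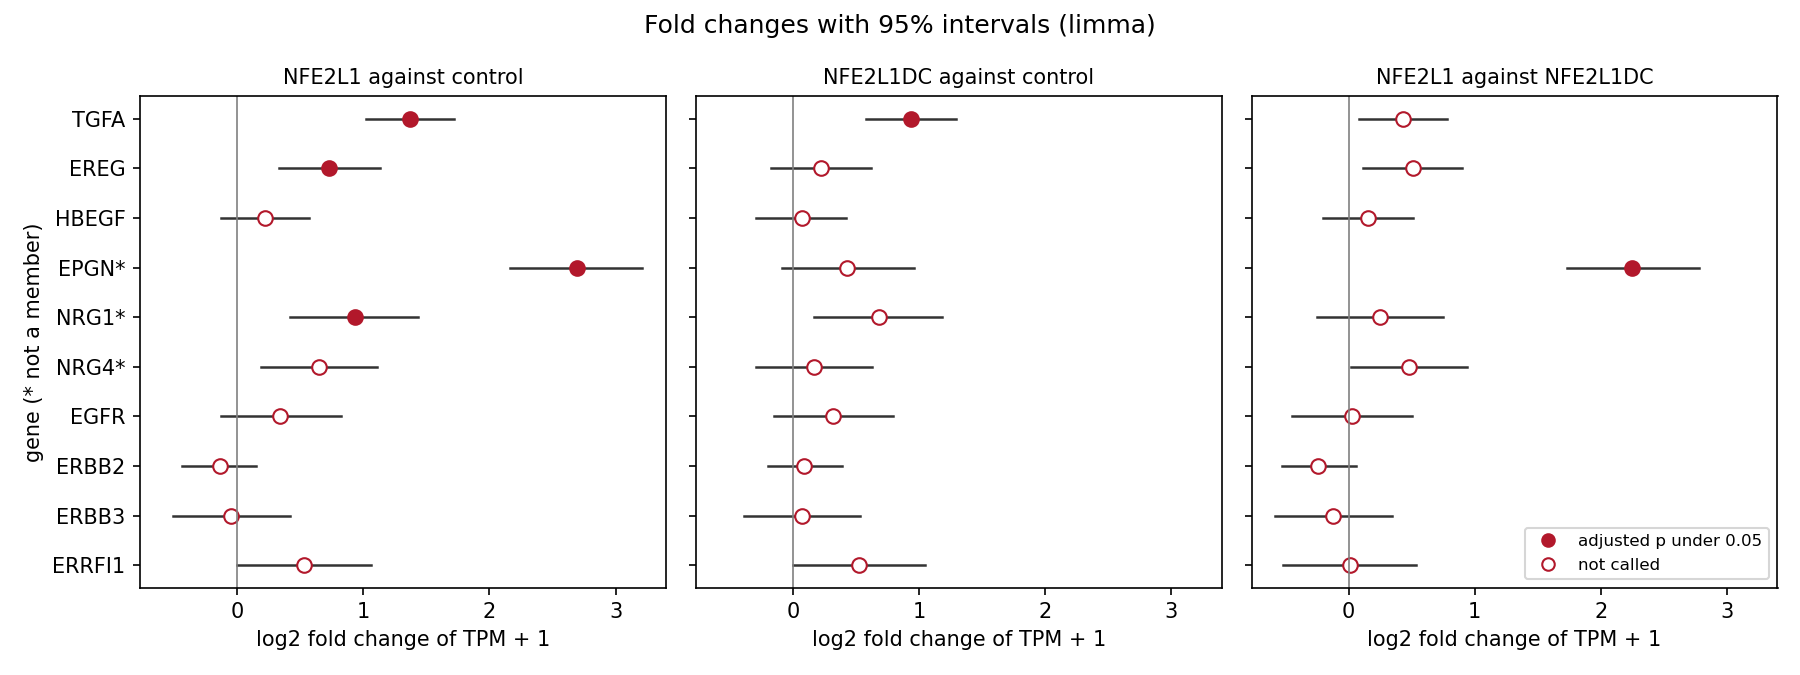
Log2 fold changes on the TPM + 1 scale (horizontal axis) with 95% intervals for the 7 genes tested and 3 further ligand genes, in 3 comparisons. Filled points have a limma adjusted p under 0.05. TGFA is filled in both comparisons with control, EPGN in both comparisons of NFE2L1, and the 3 receptors in none.

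Of the 9 single-library omissions, that of control replicate 3 added calls. Without it 4 genes were called with NFE2L1, EGFR and ERRFI1 besides TGFA and EREG, and 2 with NFE2L1DC, ERRFI1 besides TGFA. In that fit 36.3% of all genes were called with NFE2L1 and 24.7% with NFE2L1DC, and 2 of 7 is near the NFE2L1DC share. The fold change of TGFA with NFE2L1 stayed between 1.27 and 1.45 in the fits that left out 1 library. With median-of-ratios scaling, which rescales each library, EGFR was at 0.17 with NFE2L1 and 0.21 with NFE2L1DC, and ERRFI1 at 0.39 with NFE2L1 and 0.44 with NFE2L1DC. Neither gene was called under that scaling or with GC content and length corrected for.

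**Figure D4:**
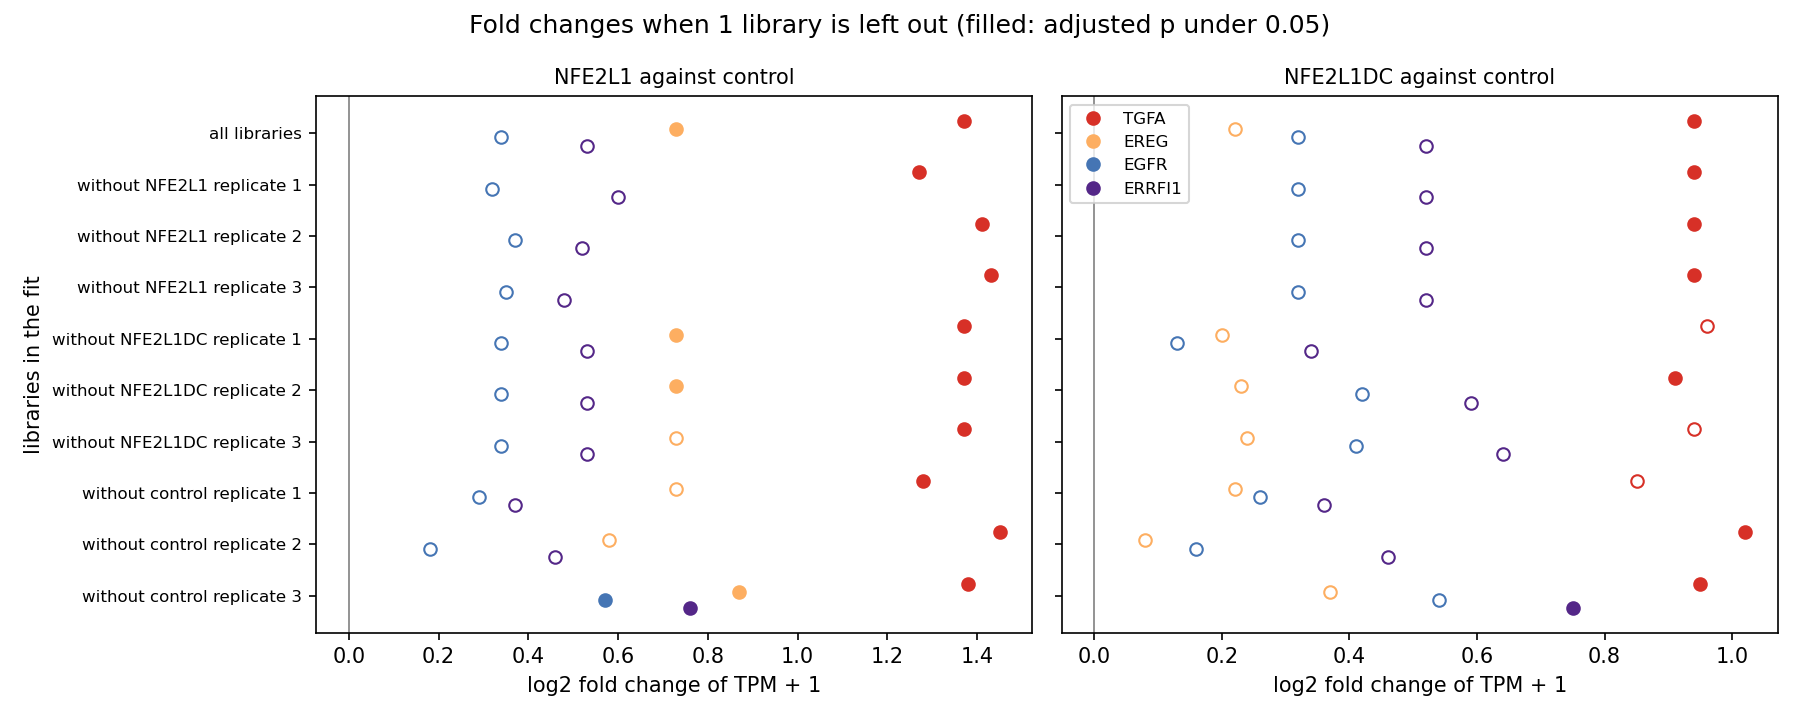
Log2 fold changes against control (horizontal axes) of TGFA, EREG, EGFR and ERRFI1 with all libraries and with 1 library left out (rows), for NFE2L1 and NFE2L1DC. Filled points have a limma adjusted p under 0.05, and EREG has no point where it did not pass the filter. TGFA with NFE2L1 is filled in every row, EGFR is filled only with NFE2L1 and without control replicate 3, and ERRFI1 only without control replicate 3.

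The other ligand and receptor genes of the family were also examined. Of 7 listed (ERBB4, EGF, EPGN and the neuregulins NRG1 to NRG4), 3 were tested. With NFE2L1 2 of them rose, where 7.83% of all genes were called higher. Besides EPGN this was NRG1, a ligand of ERBB3 and ERBB4, at 2.15, 2.2 and 2.94 TPM in NFE2L1 libraries, 2.49, 1.77 and 1.44 TPM in NFE2L1DC libraries and 0.745, 0.406 and 1.36 TPM in control libraries. Every library of both overexpressing lines lay above the control libraries. Taken line by line, this held for 22.6% of all genes with NFE2L1 and 13.7% with NFE2L1DC. NRG1 rose by 0.93 with NFE2L1 (SE 0.22, limma adjusted p = 0.0329), a call that held in 8 of 16 other fits, and differed by 0.68 with NFE2L1DC (limma adjusted p = 0.128). NRG4, a ligand of ERBB4, was at 4.69, 4.51 and 4.45 TPM with NFE2L1, 2.83, 4 and 2.3 TPM with NFE2L1DC and 1.84, 2.59 and 3.35 TPM in control, and its difference of 0.65 with NFE2L1 was not called (limma adjusted p = 0.073). EGF itself was at 0.0234 TPM or less, NRG2 at 0.326 TPM or less, and NRG3 was listed at 0 in every library.

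Downstream of the receptors, 10 genes known as transcriptional readouts of ERK were counted, with members of this list already known to be higher in these data. All 9 that were tested rose with NFE2L1, beside 7.83% of all genes called higher, and EPHA4 was listed at 0. Their median log2 fold change was 2.14 beside 0.17 over all genes. With NFE2L1DC 7 of the 9 rose, beside 2.06% of all genes called higher, with a median of 1.44 beside 0.12. DUSP4, a phosphatase of MAP kinases, was at 15.9 ± 0.642 TPM with NFE2L1, 7.12 ± 0.64 TPM with NFE2L1DC and 0.854 ± 0.198 TPM in control (SD, n = 3 each). It rose by 3.2 with NFE2L1 (limma adjusted p = 4.97e-06) and by 2.13 with NFE2L1DC (limma adjusted p = 0.000211). CCND1, which encodes cyclin D1, was at 126 ± 8.36 TPM with NFE2L1, 102 ± 11.5 TPM with NFE2L1DC and 35.9 ± 8.41 TPM in control, and rose by 1.81 with NFE2L1 (limma adjusted p = 0.000166) and by 1.5 with NFE2L1DC (limma adjusted p = 0.00145). SPRY4, a Sprouty inhibitor of receptor signalling, was at 3.78 ± 0.493 TPM, 2.09 ± 1.14 TPM and 0.0842 ± 0.0509 TPM in the same order. DUSP6, the ERK phosphatase, was at 9.63, 4.74 and 7.4 TPM with NFE2L1, 3.52, 1.55 and 3.38 TPM with NFE2L1DC and 0.275, 1.11 and 0.889 TPM in control. It rose by 2.22 with NFE2L1 (limma adjusted p = 0.00307), and its difference of 1.1 with NFE2L1DC was not called (limma adjusted p = 0.0859). EPHA2, an ephrin receptor, rose by 1.15 with NFE2L1 (limma adjusted p = 0.000157) and by 0.64 with NFE2L1DC (limma adjusted p = 0.00976). PHLDA1 was at 2.5, 2.4 and 2.39 TPM with NFE2L1, 1.1, 0.747 and 0.81 TPM with NFE2L1DC and 0.243, 0.26 and 0.368 TPM in control. Like SPRY4, it reached 1 TPM in no control library and passed the filter only through overexpressing libraries. PHLDA1 rose by 1.41 with NFE2L1 (limma adjusted p = 0.000474), and its 0.54 with NFE2L1DC was not called (limma adjusted p = 0.0667). ETV4 and ETV5, ETS factors, rose by 2.74 and 3.4 with NFE2L1 and by 1.88 and 2.54 with NFE2L1DC (limma adjusted p at most 0.000442).

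Most genes between receptor and ERK did not pass the test. Of 20 adaptors and RAS-ERK genes, none rose and 1 fell with NFE2L1, beside 7.83% of all genes called higher and 2.57% called lower, and none was called with NFE2L1DC, beside 3.61% called either way. The 1 was MAPK3, which encodes ERK1, at 76.9 ± 6.94 TPM with NFE2L1 and 97.3 ± 5.01 TPM in control (log2 fold change -0.34, limma adjusted p = 0.0448). Its call held in 4 of 17 other fits. Of 8 genes of ligand shedding tested, 1 fell with NFE2L1, the metalloprotease gene ADAM15, at 282 ± 16.3 TPM against 373 ± 42.3 TPM in control (-0.4, limma adjusted p = 0.0256), held in 7 of 17 other fits. ADAM17, the main sheddase of TGFA, was not called (0.74, limma adjusted p = 0.114). None of 11 PI3K and other effector genes was called in any of the 3 comparisons, beside 10.4%, 3.61% and 0.793% of all genes called either way.

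Of 22 genes of receptor downregulation and trafficking, 2 rose with NFE2L1 and none with NFE2L1DC, beside 7.83% and 2.06% of all genes called higher. With NFE2L1 that share is near the background. LRIG1, a membrane protein that promotes degradation of these receptors, was at 10.3, 8.31 and 10.1 TPM in NFE2L1 libraries, 9.73, 7.97 and 8.56 TPM in NFE2L1DC libraries and 5.86, 5.52 and 6.48 TPM in control libraries. All control libraries were the lowest. Its rise with NFE2L1 was 0.6 (limma adjusted p = 0.027), held in 11 of 17 other fits, and it differed by 0.49 with NFE2L1DC (limma adjusted p = 0.0893). HGS, an endosomal sorting protein, rose by 0.45 with NFE2L1 (limma adjusted p = 0.0273), held in 8 of 17 other fits. The median of this list was 0.37 beside 0.17 over all genes.

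Among 17 other receptor tyrosine kinases tested, EPHB2 rose and FGFR3 and PDGFRB fell with NFE2L1, beside 7.83% of all genes called higher and 2.57% called lower. None was called with NFE2L1DC, beside 3.61% of all genes called either way. FGFR3 was at 18.8, 17.5 and 19.2 TPM in NFE2L1 libraries, 26.3, 23.4 and 25.1 TPM in NFE2L1DC libraries and 26, 23.4 and 25 TPM in control libraries, a log2 fold change of -0.4 with NFE2L1 (limma adjusted p = 0.0321). With GC content and length corrected for, FGFR3 and PDGFRB were no longer called. Over all 17 other fits the FGFR3 call held in 8 and the PDGFRB call in 6. PDGFRB was at 3.64 ± 1.2 TPM with NFE2L1 and 6.81 ± 0.781 TPM in control (-0.78, limma adjusted p = 0.0406). EPHB2 rose by 0.93 (limma adjusted p = 0.046), held in 3 of 16 other fits. The median of the list was 0.09 with NFE2L1 and 0.02 with NFE2L1DC.

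**Figure D5:**
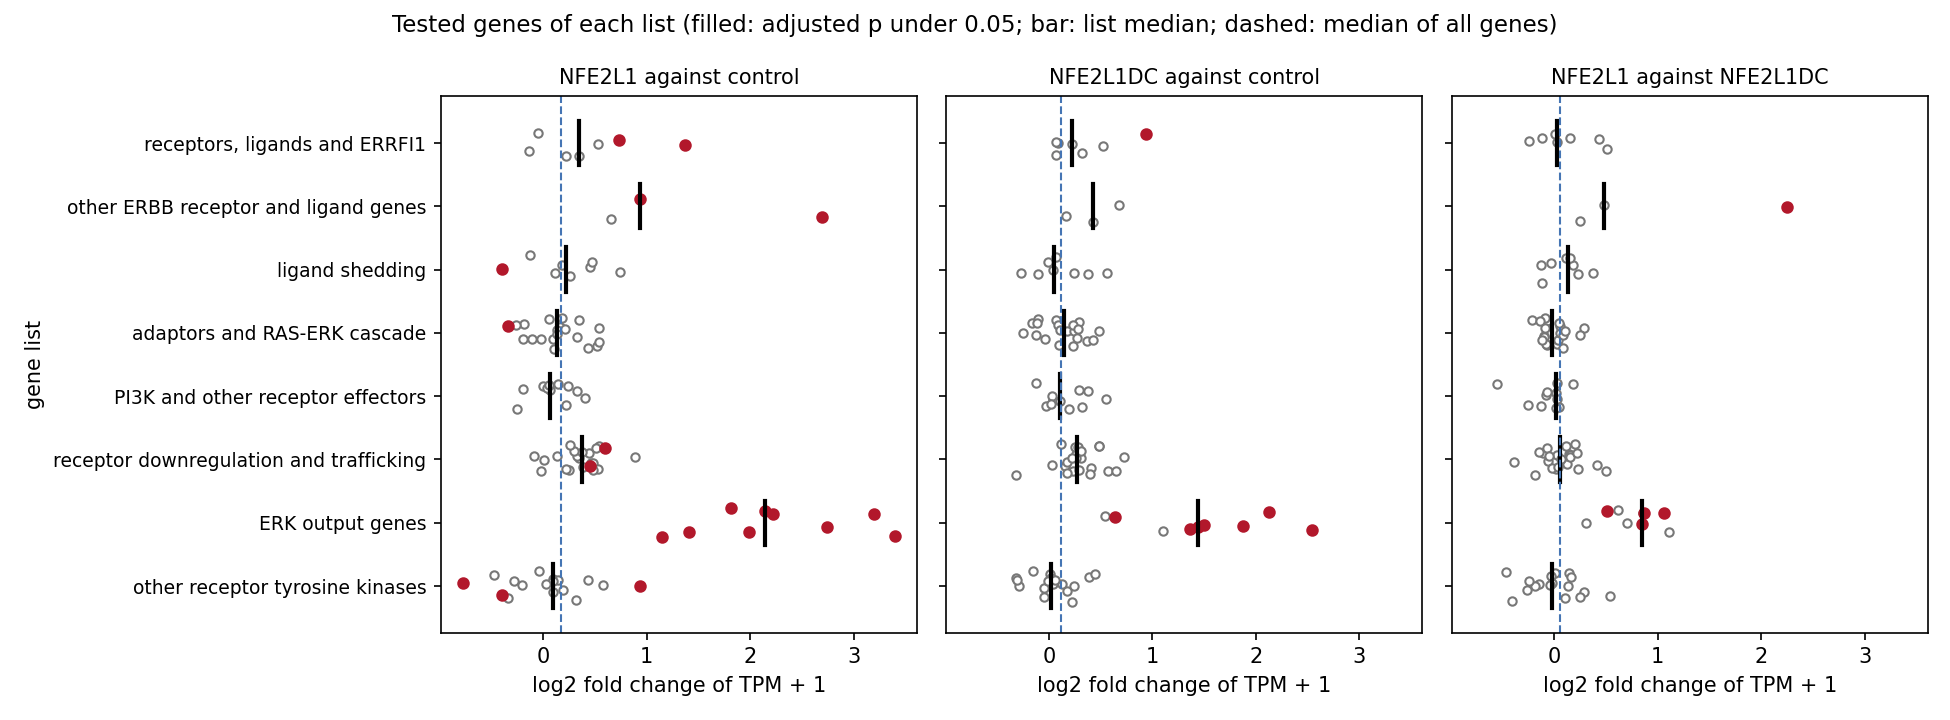
Log2 fold changes on the TPM + 1 scale (horizontal axes) of the tested genes of 8 lists (rows) in 3 comparisons. Each point is a gene, filled at a limma adjusted p under 0.05, the bar is the list's median and the dashed line the median of all 14118 genes. ERK output genes have the highest median of the 8 lists against control, 2.14 with NFE2L1 and 1.44 with NFE2L1DC. Members of that list were already known to be higher in these data, so its rank is no test.

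The patterns of TGFA and EREG across the 9 libraries were set beside those of 6872 protein-coding genes with a mean of at least 10 TPM. Likeness was the root mean square difference of log2(TPM + 1) after centring each gene. The 3 genes nearest TGFA were BMP6 (0.165), IER3 (0.169) and TNFRSF21 (0.173). BMP6, a ligand of the bone morphogenetic protein family, was at 21.3 ± 0.763 TPM with NFE2L1, 15.4 ± 0.811 TPM with NFE2L1DC and 8.14 ± 0.956 TPM in control (SD, n = 3 each). Nearest EREG were PABPN1 (0.085), CD44 (0.105) and HTD2 (0.107). CD44, the hyaluronan receptor, was at 243 ± 12.9 TPM with NFE2L1, 159 ± 2.15 TPM with NFE2L1DC and 146 ± 13.4 TPM in control. The 9 libraries fall into 3 groups, so a small difference says that the group means differ by similar amounts on this scale. The added 1 makes changes of TGFA and EREG, which are near 1 TPM, come out smaller than those of genes at 10 TPM or more. Ratios of mean TPM therefore do not match. With NFE2L1 over control the ratio was 5.7 for TGFA and 2.84 for EREG, larger than for the genes nearest to them.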

How the data were processed

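The deposited table holds TPM for 58174 genes in 9 libraries; the unit follows from the values, since columns sum to 999983.0 to 999991.7 and are not whole. Per the submitters' processing notes, CASAVA was used with build GRCh38; aligner, quantifier, annotation and strandedness were not stated in the sources used here. No column was left unmapped. Depth is unknown.

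Genes at 1 TPM or more in at least 3 libraries (14118) were tested on log2(TPM + 1) with limma 3.58.1 in R 4.3.3, 1 mean per group over all 9 libraries, variance trend, 2-sided. P-values were adjusted by Benjamini-Hochberg over all genes tested and called under 0.05. Whether replicates were separate cultures is not stated, and if they were not, the spread behind each p-value is technical. Genes were matched by ID to GENCODE 29 (57836 matched). The procedure was tested on simulated data.

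The 9 genes, 7 pathway lists and tests were chosen with earlier results of these data known. Named were NFE2L1, the 9 genes, all remaining family genes, up to 4 called genes per list and comparison by the largest absolute fold change, and for TGFA and EREG the 3 genes of most like pattern; ADAM17 and SPRY4 were named after their values were seen. Alternatives were another pseudocount, 2 filters, median-of-ratios scaling, a replicate block, only the groups compared, no variance trend, a GC and length correction, and omission of each library.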

Additional observations from a re-analysis of the deposited data

Results flagged for a closer look

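Of the 9 genes, 7 were tested, and none of these differed between the NFE2L1 and NFE2L1DC lines by the test of that difference. Among 90 tested genes of the lists around them 5 did, with 0.793% of all genes called. Of the 5, 4 are ERK output genes, a list with members already known to be higher in these data. The excess over all genes is therefore no test of the lists. EPGN was higher with NFE2L1 by 2.25 on the log2 scale (limma adjusted p = 0.00226), a call that held in all 17 other fits. DUSP4 was higher by 1.06 (limma adjusted p = 0.00797), held in 14 of 17 other fits. PHLDA1 was higher by 0.87 (limma adjusted p = 0.025), held in 7 of 16, and passed the filter on low values through the NFE2L1 libraries, with 1 NFE2L1DC library and no control library at 1 TPM or more. ETV4 was higher by 0.85 (limma adjusted p = 0.0354), held in 7 of 17. EPHA2 was higher by 0.51 (limma adjusted p = 0.0494), held in 3 of 17. In each of these 5 genes all NFE2L1 libraries lay above all NFE2L1DC libraries, as in 12.4% of all genes. The 5 were picked by their call in the same libraries, so this adds no support. The transcript of NFE2L1 averaged 247 ± 93.5 TPM in NFE2L1 libraries, against 448 ± 22.9 TPM in NFE2L1DC libraries (SD, n = 3 each), a difference of -0.92 that was not called (limma adjusted p = 0.228), and its part in these differences was not tested.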

How the results depend on the processing

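Of the 9 genes, 2 were called with NFE2L1 against control; 1 was called without a filter, with the replicate block, with only the groups compared and after the GC and length correction, and 0 with the filter at 5 TPM, which drops TGFA and EREG. Leaving out 1 library gave 1 to 4. With NFE2L1DC against control 1 was called; 0 were called with the filter at 5 TPM, the replicate block (TGFA limma adjusted p = 0.0563) and only the groups compared, and 0 to 2 without 1 library. Between NFE2L1 and NFE2L1DC 0 were called in every fit. Of the 90 pathway list genes tested, 18 were called with NFE2L1 against control and 10 with only the groups compared. Without 1 library 10 to 47 were called, the highest without control replicate 3. Over all genes the same fits called 1468, 848 and 501 to 5056. With NFE2L1DC 7 were called, and 5 to 32 without 1 library, beside 509 and 110 to 3440 over all genes. Between the lines 5 were called. There were 3 with log2(TPM + 0.1), without a filter, with median-of-ratios scaling, with the replicate block, with only the groups compared and without the variance trend. Omissions gave 1 to 6. Over all genes there were 112 in the main fit, 58 to 111 in the alternatives just named and 36 to 148 without 1 library. The cause of these differences was not tested, except that smaller fits and filters test fewer libraries or genes.

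Replicate numbers did not pair the libraries: correlations of same-numbered deviations from the group means ran from -0.189 to 0.109. The replicate block left 1 and 0 of the 9 genes called against control.

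Signs turned only for differences close to 0 that were not called. Under median-of-ratios scaling ERBB2 and ERBB3 with NFE2L1DC were at -0.02, HBEGF at -0.01, and EGFR and ERRFI1 between the lines at -0.04 and -0.05. This scaling took the median of all genes from 0.17 to 0.02 with NFE2L1 and from 0.12 to 0.02 with NFE2L1DC. After the GC and length correction ERBB3 with NFE2L1 and HBEGF with NFE2L1DC were at 0.00, and ERRFI1 between the lines at -0.01. Without 1 library ERBB3 with NFE2L1 ran from -0.23 to 0.13, and with NFE2L1DC ERBB2 from -0.05 to 0.19, ERBB3 from -0.04 to 0.20 and HBEGF from -0.01 to 0.14. Between the lines EGFR ran from -0.07 to 0.22, ERBB3 from -0.31 to 0.06 and ERRFI1 from -0.11 to 0.20.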
